A study of Mus musculus with 5 samples.

Results

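The RELA-only TNF sites between genes are peaks of the RELA TNF list that stood alone and far from coding genes. A member is a peak on chromosomes 1 to 19 or X whose summit had no summit of the other 3 lists within 50 bp. Its summit also lay more than 10 kb from every protein-coding gene start and outside all protein-coding gene records of GENCODE vM21 on mm10. The rule selected on the peak calls of the RELA TNF list and on the positions of all 4 lists, so nothing measured in that list is tested here. It found 733 members among the 2502 RELA TNF peaks, 2070 of which lie on these chromosomes. Of those 2070 peaks 1646 were alone, which is 79.5%, and the members make up 35.4%. The other RELA-only peaks were 330 near gene starts and 583 deep in gene bodies, and 424 peaks were shared with another list.

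The peaks come from ChIP-seq of fibroblast-like synoviocytes (FLS), the fibroblasts of the joint lining, of wildtype C57BL/6 mice. FLS were left untreated or given 10 ng/mL TNF for 16 h, and chromatin was precipitated with an antibody to SOX4 (Diagenode) or to NF-κB p65 (Active Motif), the protein also named RELA. The 4 lists are named by antibody and treatment (SOX4 untreated and SOX4 TNF; RELA untreated and RELA TNF) and were called against input DNA of untreated FLS that received no antibody. The study pooled the DNA of its cultures before making a library, so each condition is 1 library, and neither a difference between conditions nor one between cultures can be tested. Peak lists hold no expression, so markers of FLS could not be looked at. All intervals below are 95% intervals that cover counting error only.

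RELA is the transactivating subunit of the canonical NF-κB dimer. TNF signalling frees it from its inhibitor in the cytoplasm, and the dimer then binds GC-rich κB sites in promoters and in distant enhancers of inflammatory genes. Ground between genes holds many such enhancers and many of the genome's interspersed repeats. The rodent B1 element and the primate Alu element are both short repeats that descend from 7SL RNA, the RNA of the signal recognition particle.

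Many members share a family of sequence, and 2 windows of mm10 are shown as examples, each read on the strand given. The window near F11r belongs to the largest family, and its capitals mark a word of 9 bases that is described below. This member did not itself align to 7SL RNA under the threshold used. The window near Snx7 belongs to family 4 by size, and its capitals mark the stretch that aligned best to another member.
F11r, chr1:171466907-171466966, minus strand: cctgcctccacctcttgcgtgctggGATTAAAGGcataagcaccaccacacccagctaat
Snx7, chr3:118111464-118111563, plus strand: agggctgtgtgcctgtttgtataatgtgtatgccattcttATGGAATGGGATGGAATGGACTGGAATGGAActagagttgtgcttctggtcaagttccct

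Windows of 100 bases around the summits were aligned to Rn7s1, a 7SL RNA of the GENCODE transcripts. Of the 10 members with the highest fold enrichment 8 aligned, and the windows near Kcnn2 and Lmo7 did not. The window near Ly86 aligned over 56 bases with 85.7% identity, and that near Azin1 over 35 bases with 85.7%. Those near Nyx and Ywhaq aligned over 59 and 58 bases with 81.4% and 79.3% identity. Each of the 8 alignments lay within the first 97 bases of the RNA. Over all members the alignments gathered on its bases 10 to 61, each covered by at least 106 members.

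Among all members 266 of 733 windows aligned to Rn7s1, or 36.3% (32.9% to 39.8%). The alignments had a median identity of 82.8% over a median of 48 bases. The identity ran from 72.1% to 100.0% and the aligned length from 14 to 107 bases. They fell on the first 120 bases of the RNA in 225 members and beyond base 240 in 41, the ends that form its Alu domain, and in none between. Both directions were seen, with 136 windows on the plus strand of mm10 and 130 on the minus strand. Positions placed every 10 kb between genes gave the background, and 972 of 136122 such windows aligned, or 0.714%. The aligned background windows had a median identity of 83.7% over a median of 34 bases. Windows 2000 bp to either side of the members aligned in 1.43% (21 of 1466). The members exceeded these flanks by 34.9 percentage points (31.4 to 38.4).

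Members aligned less often than RELA-only peaks elsewhere. The share was 62.7% near gene starts and 55.6% in gene bodies, and for both together the difference of the members was -21.9 points (-26.5 to -17.1). RELA TNF peaks shared with another list aligned in 10.6%, which is 25.7 points below the members (20.9 to 30.1). On the same chromosomes the other lists gave 8.96% for RELA untreated (36 of 402), 9.38% for SOX4 untreated and 7.73% for SOX4 TNF.

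The share also fell with distance among the members themselves. Members with a start 10 to 50 kb away aligned in 54.0% (136 of 252, interval 47.8% to 60.0%). From 50 to 100 kb it was 37.6% (50 of 133, interval 29.8% to 46.1%), and from 100 to 500 kb it was 26.9% (70 of 260, interval 21.9% to 32.6%). Beyond 500 kb it was 11.4% (10 of 88, interval 6.29% to 19.7%). The intervals of neighbouring bins overlap at 50 to 100 and 100 to 500 kb, and the others do not. Grid positions in the same bins declined too, from 1.35% to 0.818%, 0.449% and 0.337%.

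**Figure D1:**
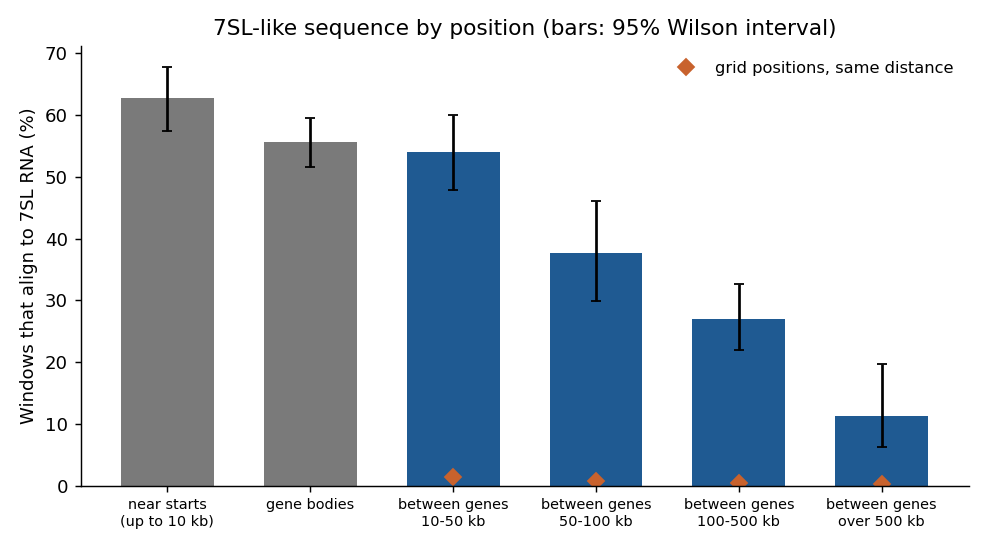
Share of 100-base windows that align to 7SL RNA (y axis, percent) for RELA-only TNF peaks near gene starts and in gene bodies (grey) and for the members by distance to the nearest protein-coding start (blue), with Wilson intervals, and for grid positions at the same distances (diamonds). The members' share declines from 54.0% to 11.4% with distance and stays above the diamonds in each bin.

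Short words were shared by many members, and their place within the alignments was not tested. The most frequent word of 8 bases, counted on both strands, was CCTGCCTC in 120 members (16.4%) against 1.15% of grid windows. AATCCCAG followed in 115 members (15.7% against 1.01%). The word GCTGGGA was in 137 members, or 18.7% (16.0% to 21.7%), against 2.93% of flanks and 2.13% of grid windows. Of these 137 windows 126 aligned to Rn7s1, out of 266 that did. The word was less frequent than near gene starts (31.5%) and in gene bodies (30.7%). Within 40 bp of the summits it occurred 137 times, at 231 words per 100 kb of sequence, against 36.7 per 100 kb in the rest of the 1000 bases around them. It read on the plus strand in 71 of these cases and on the minus strand in 66, at a median of 12 bp from the summit.

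**Figure D2:**
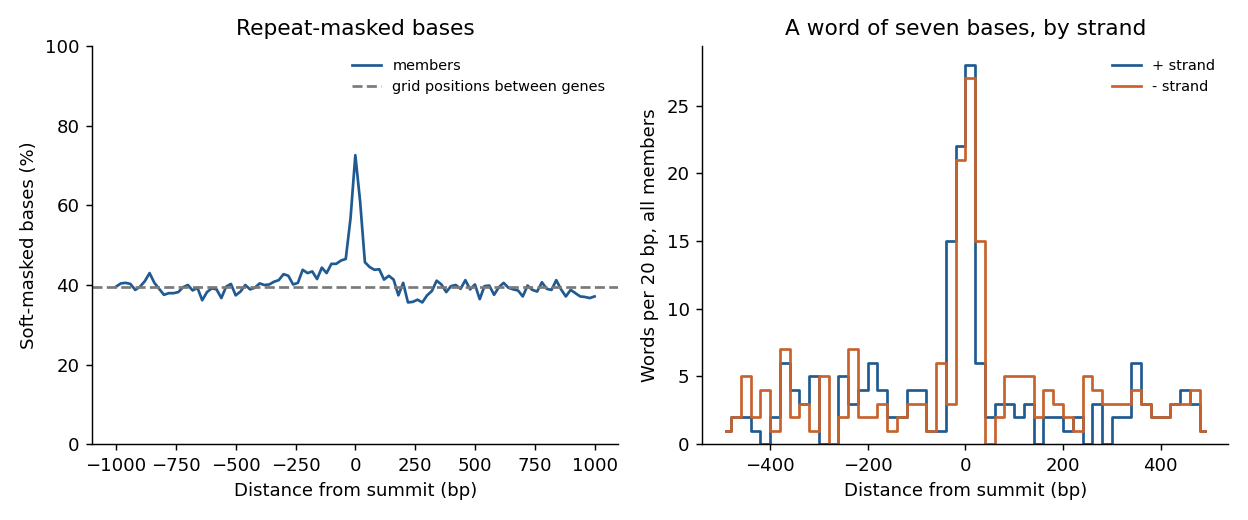
Left, percent of members whose base is soft-masked (marked as repeat in the mm10 reference) by distance from the summit in bp, with the grid share as a dashed line. Right, number of GCTGGGA words per 20 bp in all 733 members on each strand. Masking rises from 45.3% at 100 bp before the summit to 72.6% at the summit and is 43.9% at 100 bp after it, and the word is gathered within 40 bp of it.

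The members also carried 2 forms of a word of 9 bases, GATTACAGG and GATTAAAGG, and the window near F11r printed above holds the latter. Of the 137 windows with GCTGGGA 36 held GATTACAGG and 37 held GATTAAAGG, so the forms were also found in windows without that word. The form GATTACAGG was in 57 members (7.78%, interval 6.05% to 9.94%) and in 0.0933% of grid windows. The form GATTAAAGG was in 43 members (5.87%, interval 4.38% to 7.81%) and in 0.490% of grid windows. Over the chromosomes studied the reference holds GATTACAGG 36977 times and GATTAAAGG 184192 times, so that GATTACAGG is 16.7% of the pair in the genome. Among members with either form it was in 57 of 100, or 57.0% (47.2% to 66.3%), and in the other RELA-only peaks in 145 of 202, or 71.8% (65.2% to 77.5%). In grid windows it was in 16.0% (127 of 794). As background, GATTAAAGG is the form of the mouse B1 consensus and GATTACAGG that of the primate Alu consensus. Whether reads of another species took part in these peaks was not tested, and reads were not analysed here.

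Members were then grouped by alignment to each other, which put 562 of the 733 (76.7%) into 35 families and left 171 alone. The largest family held 335 members, of which 258 aligned to 7SL RNA. Families 2 to 5, in order of size, held 36, 33, 32 and 16 members and rested on other sequence. Links between members were chained, so that a family can hold windows that do not align to each other. Grid windows were not grouped in this way, so the share of members in families has no background here.

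The window near Snx7, a sorting nexin, which is printed above, carries the repeat of a 5-base unit of family 4. The word GGAATGGAA, which spans this unit, was in 23 of the 32 members of that family. Over all members it was in 30 members (4.09%, interval 2.88% to 5.78%) against 0.147% of grid windows and 1.75% of the other RELA-only peaks. In the lists the members were kept apart from, only peaks on the same chromosomes were counted. The word was in 5.97% of RELA untreated (24 of 402), 9.38% of SOX4 untreated and 4.60% of SOX4 TNF peaks there. Its share among members was 1.98% at 10 to 50 kb from a start (5 of 252, interval 0.850% to 4.56%) and 9.09% beyond 500 kb (8 of 88, interval 4.68% to 16.9%), the other way round from the 7SL share. Tandem GGAAT units are known from the classical satellite DNA of human chromosomes, which is given as background and was not tested here. Family 4 had a median fold enrichment of 12.7 (9.98 to 17.2) and family 2 one of 9.48 (8.48 to 10.5).

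The members' summits lay on a soft-masked base in 532 cases, or 72.6% (69.2% to 75.7%). The share was 41.1% in the flanks and 39.6% on the grid, 31.5 points (27.3 to 35.5) and 33.0 points (29.6 to 36.1) lower. It was 77.8% in the other RELA-only peaks, with a difference of -5.19 points (-9.41 to -0.999). The masked run over the summit had a median of 72 bases, and 301 of the 532 runs were no longer than 100 bases. Of the members off masked bases 30 of 201 (14.9%) still aligned to 7SL RNA, against 0.371% of unmasked grid windows. The windows of 54 members (7.37%) occurred more than once in the reference over 50 bases, with 5 copies at most. The summit windows of the other 679 members were found once in mm10 as exact matches, and copies with mismatches were not counted.

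The κB site, the motif of the protein precipitated, was rare. The NF-κB consensus, searched on both strands, was in 2 member windows (0.273%, interval 0.0749% to 0.989%), against 0.682% of the flanks and 0.622% of the grid. The difference from the grid was -0.349 points (-0.552 to 0.368).

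The window near Gp9, a platelet glycoprotein, had a fold enrichment of 18.5 and also aligned to 7SL RNA. The window near Sec16b, an organiser of ER exit sites, had a fold enrichment of 8.98 and belonged to family 2. The shorter word GGGAA, found in many κB sites, was in 14.5% of members, 22.5% of grid windows and 23.2% of flanks. The difference of the members from the grid was -8.08 points (-10.5 to -5.34). The SOX consensus, which is CAA with A or T at both bases before it and A or T and then G after it, was in 116 members (15.8%), 15.5% of flanks and 16.2% of the grid, and the difference from the grid was -0.341 points (-2.81 to 2.49). Against RELA-only peaks near gene starts (9.70%) the difference was 6.13 points (1.71 to 10.1). Against those in gene bodies (13.2%) it was 2.62 points (-1.26 to 6.39), an interval that includes 0. The windows also differed in base composition, with a median GC content of 42.0% in members and 47.0% in RELA-only peaks of gene bodies, and its part in these shares was not tested. The AP-1 word TGANTCA was in 2.18% of members and 2.90% of grid windows. A match is a description of letters and no match says nothing of the factor.

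The fold enrichment, a deposited ratio of a peak over its background, had a median of 9.97 in the members (interval 9.48 to 9.98) and ran from 2.02 to 36.9. It was 9.98 near gene starts, 10.2 in gene bodies and 11.4 at shared peaks. The −log10 q had a median of 15.5 and a range of 2.85 to 102.5. Of the fold values 550 (75.03%) were whole multiples of 0.499 to within 0.01 of a step, with a median of 20 steps, and in the other classes the share was 70.5% to 77.9%. Fold values that differ by 1 step are thus neighbours on a coarse scale. The peaks were narrow, with a median of 58 bp and a range of 49 to 218 bp, and 114 were exactly 49 bp wide. Each was thus narrower than the fragment length of 300 given in the file headers.

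The 10 highest fold values were led by a site 161448 bp downstream of the start of Ly86, which encodes a partner of an immune receptor of B cells. It reached a fold of 36.9 with a −log10 q of 102.5 at chr13:37506616-37506694, inside the lincRNA record Gm47734. The site 50990 bp upstream of Azin1, the antizyme inhibitor of polyamine metabolism, reached 31.9 at chr15:38570219-38570294 inside 2310043O21Rik. Sites near Kcnn2, a potassium channel gene, and Nyx, a gene of retinal signalling, both reached 30.4. Lmo7 followed with 29.9 and Tmem114 with 29.4, and Igsf3, Ccdc114, Pdia6 and Ywhaq shared 28.9. The sites near Kcnn2 and Lmo7, which did not align to 7SL RNA, belonged to family 2. Members that aligned had a median fold of 11.4 (10.5 to 11.97) and the others 8.98 (8.98 to 9.48), as a description of the list that chose them.

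**Figure D3:**
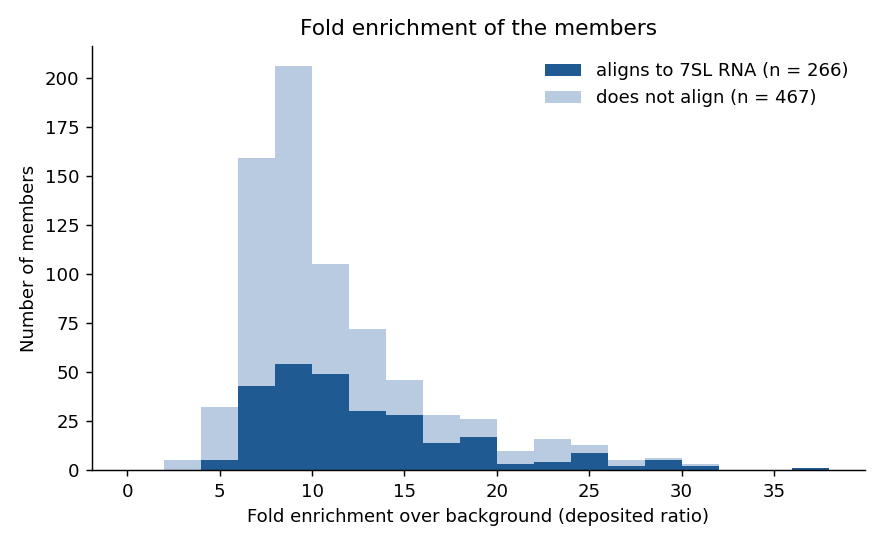
Number of members (y axis) by fold enrichment over the background (x axis, deposited ratio) in bins of 2, split into those that align to 7SL RNA and those that do not. The quartiles of all members lie at 7.98 and 13.5, and the value farthest to the right is the site near Ly86 at 36.9.

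The site with the 3rd highest −log10 q lay in a 7SL gene itself, at chr6:69516329-69516412 in Rn7s6, with a fold of 25.998 and a −log10 q of 82.8. Rn7s6 is one of 4 records of the type misc_RNA that held a member, and all 4 windows aligned to Rn7s1. The others were Gm23153 with a fold of 24.4, Gm24105 with 8.98 and Gm24514 with 24.9. In all, 91 members (12.4%, interval 10.2% to 15.0%) lay in a gene record that does not code for protein, against 11.7% of grid positions between genes. Of these members 61 lay in lincRNA records, 10 in antisense records and 9 in processed transcripts, and the pseudogene Dcdc5 held 3 members. A member in records of 2 types counts in both.

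The members were closer to coding genes than the ground they were drawn from. Of the RELA-only peaks 44.5% lay between genes by the rule, against 53.2% of grid positions, a difference of -8.66 points (-11.05 to -6.24). The median distance to the nearest protein-coding start was 93183 bp (79161 to 103684), with quartiles at 33446 and 264445 bp. For grid positions it was 148464 bp, with quartiles at 48684 and 393835 bp. The bin of 10 to 50 kb held 34.4% of members (31.03% to 37.9%) and 25.5% of grid positions, and that beyond 500 kb held 12.01% (9.85% to 14.6%) and 19.2%. Members lay upstream of that start in 457 cases (62.3%, interval 58.8% to 65.8%), against 61.1% of the grid. The aligned members had a median distance of 48160 bp and the rest 132129 bp.

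**Figure D4:**
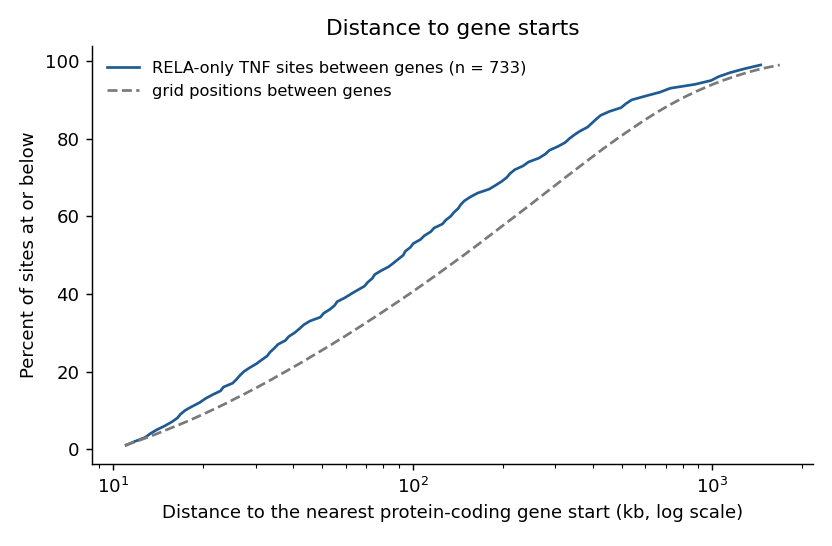
Percent of sites at or below a distance (y axis) against the distance to the nearest protein-coding start (x axis, kb, log scale) for the 733 members and for grid positions between genes. The members' curve lies above that of the grid from the 2nd percentile on, with medians at 93183 and 148464 bp.

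The farthest member lay 2429174 bp from the start of Pcdh9, a protocadherin gene, with a fold of 13.0. The next had Cdh20, a cadherin gene, at 2363637 bp with a fold of 6.05 and Zeb2, a repressor of epithelial genes, at 1842502 bp with 10.98. A second site near Cdh20 at 1748749 bp had a fold of 5.70 and one near Cntnap5a at 1643477 bp had 8.45. The window near Zeb2 and the farther one near Cdh20 aligned to 7SL RNA, the other 3 did not. Of those 3, the window near Cdh20 belonged to family 4, that near Cntnap5a to family 5 and that near Pcdh9 to none.

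The peaks next to each threshold were as follows. Just inside the limit of 50 bp lay members with another list's summit at 58, 64 and 85 bp, with folds of 8.48, 7.48 and 4.99. Just outside lay peaks with one at 29, 25 and 21 bp, with folds of 6.99, 48.4 and 26.9. At the limit of 10 kb the members nearest to a start lay 10070, 10110 and 10467 bp away, near Gm9747, Fezf2 and B3gnt7. Peaks left out at this limit lay 9895, 9641 and 9621 bp away, near Iqsec1, Cxcr3 and Vav3. They are not the closest of all, since the RELA-only peaks near gene starts reached up to 9934 bp. The median distance of the members to the nearest summit of the other lists was 1476379 bp, and 15 had one within 10000 bp. Those lists are short, with 561 RELA untreated, 192 SOX4 untreated and 543 SOX4 TNF peaks. The distance of grid positions to them was not computed.

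Of 150 listed genes of NF-κB, cytokine, matrix, AP-1 and mesenchymal regulation that have a protein-coding record, 13 were nearest to 16 members (2.18%, interval 1.35% to 3.52%), against 1.28% of grid positions. The NF-κB pathway had 4 of them. Traf3, an adaptor that restrains the non-canonical pathway, lay 26390 bp from a member with a fold of 19.5 that aligned to 7SL RNA. Map3k7, the kinase TAK1, had 2 members at 409766 and 875466 bp with folds of 8.48 and 7.98. Tab2, its partner, had 1 at 155269 bp with a fold of 6.05. The windows near Map3k7 and Tab2 did not align, though that near Tab2 belonged to the largest family and those near Map3k7 to none.

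Cytokine, chemokine and adhesion genes had a single member, 55150 bp upstream of Ptgs2, the prostaglandin synthase COX-2, with a fold of 7.98. Matrix and protease genes had 1 too, 335685 bp upstream of Tnc, which encodes tenascin C, also with 7.98. The MAP kinase phosphatases Dusp5 and Dusp6 had 1 each, at 26617 and 175827 bp with folds of 9.48 and 7.98. The listed SOX genes and mesenchymal regulators had 8 members. The highest of these lay 467478 bp from Sox11, a SoxC gene, with a fold of 25.4 at chr12:27810014-27810083, and a second one lay 218316 bp on its other side with 8.48. Wnt2 had a fold of 16.0 at 73466 bp, Tgfbr2, a TGF-beta receptor, 15.0 at 79638 bp, and Bmp2 12.6 and 9.98 at 285929 and 206265 bp. Snai2 had 9.48 at 81268 bp. Sox9, the chondrocyte factor, had 4.99 at 727041 bp, where another list's summit lay 85 bp away. The windows near Ptgs2, Dusp5 and Tgfbr2 and those near Bmp2 aligned to 7SL RNA. Those near Tnc, Dusp6, Sox11, Wnt2, Snai2 and Sox9 did not. Of these, the windows near Dusp6 and Wnt2 belonged to the largest family. The window near Tnc and the higher one near Sox11 were in family 7, and that near Snai2 was in family 6. The second window near Sox11 and that near Sox9 were in no family. The grid share was not computed for each of these gene lists apart, so the counts per list have no background and cannot be ranked. A summit is assigned to the nearest start and no contact was measured.

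By symbol or synonym, the study's 638 SoxC-dependent TNF-responsive genes were matched to 485 protein-coding genes. Of these 485 genes 23 were nearest to 26 members (3.55%, interval 2.43% to 5.15%), against 3.79% of grid positions. The study chose its list on RNA-seq of FLS with floxed SoxC genes, infected with GFP or Cre adenovirus, whereas the peaks come from wildtype FLS. The highest folds were 18.96 near Ncoa1, a coactivator of nuclear receptors, 18.0 near Frs2, an adaptor of FGF receptors, and 17.2 near Adgrl2, an adhesion receptor with 3 members. Npy had 14.5, Cadm1 13.0, Pdgfd 10.5 and Ier3, an early response gene, 8.48. The windows of the highest folds near Ncoa1, Frs2 and Adgrl2 aligned to 7SL RNA, as did those near Pdgfd and Ier3. Those near Npy and Cadm1 did not, though both belonged to the largest family. Of 136 listed genes in other records 1, Gm37800, held a member. In all the 733 members had 637 nearest genes, of which 565 had 1 member and 13 had 3 or more.

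Members were spread over all chromosomes at 53.8 per 100 Mb of ground between genes. Chromosome X had 81.2 (65.2 to 99.96) and chromosome 18 had 29.8 (16.7 to 49.1), with Poisson intervals. On chromosome X 35 of the 89 members lay between 120 and 130 Mb, from 121627927 to 127760551. None of those 35 aligned to 7SL RNA, 22 had a window found more than once in the reference, and their median fold was 7.48. The other 54 members of chromosome X made 53.2 per 100 Mb. In all, 101 members (13.8%) had another within 100 kb, in 40 groups, 32 of which were pairs. Without the stretch of 120 to 130 Mb the share was 10.3%. No background was computed for this spacing, so the share cannot be read as a trait of the members. The largest groups were on this stretch, with 8 members near Gm17267 over 49280 bp, 7 near Cldn34c3 and Vmn2r121 over 73735 bp and 5 near Gm21616 over 33962 bp. Windows found more than once cannot be told apart by reads of their length. The rule leaves out chromosome Y, where 266 of 432 RELA TNF peaks met the rest of it.

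**Figure D5:**
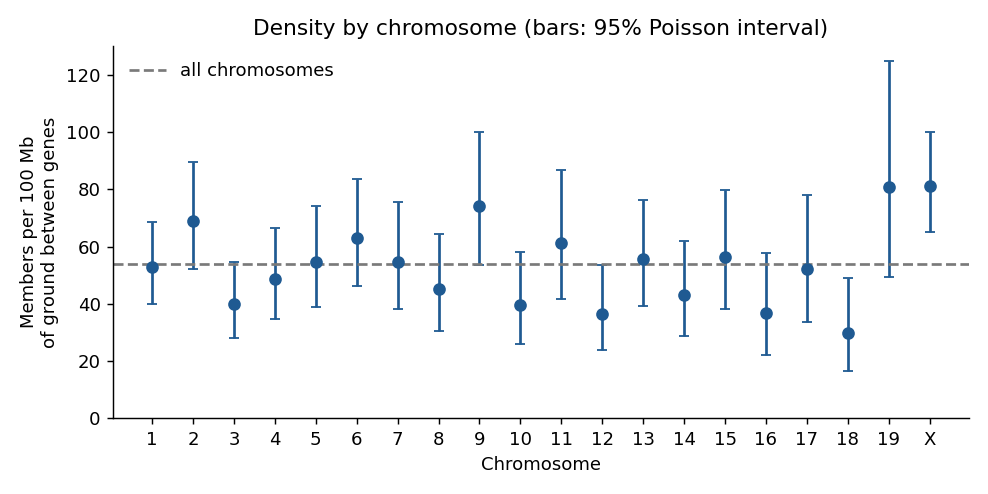
Members per 100 Mb of ground between genes (y axis) on each chromosome (x axis), with Poisson intervals and the value over all chromosomes as a dashed line. Chromosomes 9, 19 and X are highest, and the value for X is 53.2 without its stretch of 120 to 130 Mb.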

How the data were processed

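ChIP-seq peaks of 4 libraries of mouse FLS were analysed, and the input library has no peak list here. According to the methods of the study, single-end reads were mapped to mm10 and peaks were called with MACS in Strand NGS (the submitters' processing notes name MACS2), and per the file headers the fragment length was 300 and peaks past a p-value of 1e-05 were kept. The treatment of duplicate and multiply mapped reads is not given in the sources used here. The authors deposited the −log10 of each peak's p-value and q-value. The deposited fold change is the ratio of a peak to its background. Peak lists give no depth per library, so the precision stated is that of counts of peaks only.

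Peaks were used as listed. Summits were placed with GENCODE vM21 on GRCm38.p6, whose lower-case bases were read as soft-masked. Background positions were placed every 10 kb and kept where 200 bases held no unknown base and the rule's criteria on genes were met. Windows of 100 bases were searched for words on both strands (N is any base) and aligned with blastn 2.17.0 to Rn7s1 (e-value of at most 1e-3, word size 7) and to each other (1e-5, word size 11). Copies were counted as exact 50-base windows in all 239 reference sequences. Shares have Wilson intervals, differences Newcombe intervals and medians order-statistic intervals. With 1 library per condition no test was made. The members, the gene lists, the words and 7SL RNA were chosen with earlier results of these data known. Named sites are the 10 highest by fold and 5 by −log10 q, those nearest to listed genes, the 5 farthest from a start, the 3 largest groups, those next to each threshold and those with the NF-κB consensus. Other members named were chosen after their values were seen. The sequences of most windows are not reported here. The search, placement and interval code was tested on simulated data. Python 3.11.15 and scipy 1.17.1 were used. Alternatives covered the limits of the rule, the gene types, peak midpoints, −log10 q of at least 10, single-copy windows and window size.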

Additional observations from a re-analysis of the deposited data

How the results depend on the processing

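No paired analysis was possible because the results come from no test and a condition has only 1 library. Of 119 alternative values for 12 results 102 stayed within 1.5 times (counts) or within the interval of the value reported, 17 moved and none reversed. A limit of 50 kb from a start left 481 members, with a median distance of 183096 bp, GCTGGGA in 15.6% and the SOX consensus in 18.7%. A limit of 5 kb gave a median distance of 78605 bp. Counting all gene types gave 106718 bp, 0 members in other records, by construction, and 10.7% with another member within 100 kb. A −log10 q of at least 10 gave a median fold of 10.5, a median −log10 q of 18.0 and 10.3% with another member within 100 kb. That last share was 11.3% with single-copy windows, 4.91% within 10 kb in place of 100 kb, and 10.3% without chromosome X 120 to 130 Mb, an alternative added after seeing the data. Windows of 200 bp held the SOX consensus in 32.1%, by their length. Any start within 100 kb in place of the nearest gave 7 members at listed genes. An e-value of at most 1e-6, also added after seeing the data, gave 28.1% of members aligned to Rn7s1 and 0.331% of the grid. Depth could not be weighed, since reads and coverage were not analysed here, and the number of members bounds each share.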
